A study of Columba livia and Gallus gallus with 96 samples.

Results

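ALX1, ALX4 and PAX9 are 3 transcription factor genes known from the anterior side of the vertebrate limb bud, and their transcripts were followed through forelimb and hindlimb buds of pigeon embryos. They were taken by gene symbol from the names in the authors' deposited tables. They are 3 of the 15850 entries of the pigeon count table once counts were summed per symbol, and each consists of 1 feature, XM_005499824.1 for ALX1, XM_005500258.1 for ALX4 and XM_005502469.1 for PAX9. All 3 symbols also occur in the supplied RefSeq gene table. No coordinates are given, since the genome build behind the counts is not given in the sources used here.

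ALX1 and ALX4 encode aristaless-like transcription factors with a paired-type homeodomain, made in craniofacial and limb mesenchyme. In the mouse, Alx4 is expressed in the anterior mesenchyme of the bud, and its loss leads to extra digits on the anterior side together with ectopic Shh there. PAX9 encodes a paired-box transcription factor of the sclerotome, the pharyngeal pouches and a domain of anterior limb mesenchyme, and its loss in the mouse duplicates a digit on the same side.

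The 72 libraries came from domestic pigeon (Columba livia) embryos and form 18 groups of 4, which cross 3 foot phenotypes with the forelimb or hindlimb bud and with Hamburger-Hamilton stages HH21, HH25 and HH29. The labels equate them with embryonic days 3.5, 4.5 and 6. The feet of scale pigeons carry scales, while grouse and muff are feathered-foot phenotypes. The labels name no genotype, strain, sex or treatment for any group, so scale embryos serve as the only reference for foot phenotype. Foot feathering in domestic pigeons is known to be associated with regulatory variants at PITX1, a hindlimb selector gene, and TBX5, a forelimb selector gene. Fore- and hindlimb buds were dissected in pairs. The labels do not say whether a library held buds of 1 embryo or of several, so p-values measure the spread between these libraries.

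Library totals ranged from 10438537 to 16378164 counts. Levels below are CPM, the read count scaled to the size of the library, after TMM scaling over the 72 libraries, listed in the order of replicates 1 to 4, or as mean ± SD with n = 4. Because no gene lengths were used, levels are compared within a gene and not between genes. The limb labels held for the selector genes. TBX5 was at 143 to 374 CPM in forelimb and 0.083 to 66.2 CPM in hindlimb libraries. TBX4 was at 113 to 229 CPM in hindlimb and 0.37 to 4.93 CPM in forelimb libraries. All 6 genes of a limb identity list passed the test in each of the 9 limb comparisons, 5 higher in hindlimb and 1, TBX5, lower. Of 8 limb mesenchyme markers, 6 were in the table and none was at 0 in every library of a limb and stage. Whole buds were measured, so the position of a transcript within the bud was not.

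ALX1 was lower in hindlimb than in forelimb buds in every phenotype and at every stage, and PAX9 was higher in hindlimb throughout. Mean ALX4 was higher in hindlimb at HH21, which passed the test only in scale. At HH29 it was lower in hindlimb, which passed in scale and muff. Hindlimb ALX1 was below forelimb ALX1 in 36 of 36 same-numbered pairs of libraries, and hindlimb PAX9 was above forelimb PAX9 in 36 of 36. ALX4 was higher in hindlimb in 11 of 12 pairs at HH21, in 4 of 12 at HH25 and in 1 of 12 at HH29. These pairs span all phenotypes, and the share of all genes with pairs so one-sided was not counted. In bulk buds, fewer cells that make a transcript and less transcript per cell cannot be told apart.

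**Figure D1:**
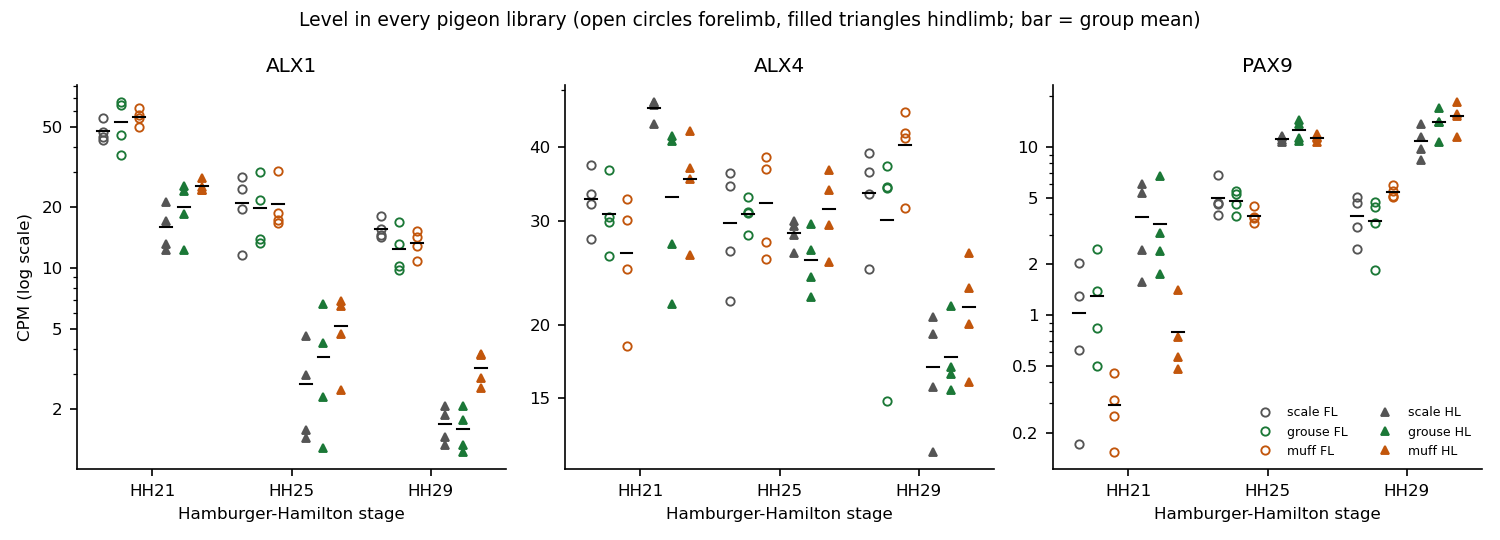
Levels of ALX1, ALX4 and PAX9 in all 72 pigeon libraries, in CPM on a log axis, by stage. Open circles are forelimb and filled triangles hindlimb libraries, colours give the foot phenotype, and bars are group means. Forelimb ALX1 lies above hindlimb ALX1 in all 9 pairs of groups, ALX4 groups overlap widely, and the PAX9 groups of HH25 and HH29 hindlimb stand highest.

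Differences were tested with edgeR's quasi-likelihood test, and a gene was called where the Benjamini-Hochberg adjusted p over all tested genes was below 0.05. The share of all tested genes that was called is the background to the counts below. In either direction it was 1.22% at HH21, 0.943% at HH25 and 1.85% at HH29 in scale, 0.508%, 1.42% and 1.01% in grouse, and 0.971%, 1.19% and 0.661% in muff pigeons. Genes called lower in hindlimb made up 0.741%, 0.516% and 0.832% at these stages in scale, 0.35%, 0.781% and 0.542% in grouse, and 0.631%, 0.758% and 0.299% in muff. Genes called higher made up 0.483%, 0.427% and 1.02% in scale, 0.158%, 0.635% and 0.47% in grouse, and 0.34%, 0.432% and 0.362% in muff. Limb groups without overlap, in either direction, were found for 6.44%, 5.26% and 6.1% of tested genes in scale, 4.17%, 5.6% and 7.33% in grouse, and 6.64%, 5.9% and 4.35% in muff. With the limbs paired by replicate number (the replicate block) more genes were called: 11.2%, 11.2% and 12.0% in scale, 1.33%, 11.2% and 1.31% in grouse, and 5.26%, 8.26% and 8.76% in muff. Counts with that block are read against these larger shares.

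At HH21, ALX1 was at 43.03, 47.2, 44.6 and 55.5 CPM in scale forelimb and at 13.2, 21.4, 12.4 and 17.1 CPM in scale hindlimb. In grouse it was at 36.3, 66.5, 45.6 and 64.2 CPM in forelimb and 12.4, 24.2, 18.5 and 25.5 CPM in hindlimb. In muff it was at 50.04, 55.4, 57.5 and 61.96 CPM in forelimb and 24.5, 24.3, 25.2 and 28.1 CPM in hindlimb. No hindlimb library reached the lowest forelimb library of its phenotype, and the forelimb mean was 2.20-fold (muff) to 2.97-fold (scale) the hindlimb mean. On the log2 scale, hindlimb over forelimb was -1.56 ± 0.17 (SE, adjusted p = 0.00126) in scale and -1.15 ± 0.10 (SE, adjusted p = 0.000501) in muff. In grouse it was -1.40 ± 0.27 (SE, adjusted p = 0.0661), which missed the threshold of 0.05. That difference passed once the limbs were paired by replicate number (adjusted p = 0.000296 with the replicate block) and without grouse hindlimb replicate 1 (adjusted p = 0.0492).

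At HH25, ALX1 was at 28.2, 24.8, 19.8 and 11.6 CPM in scale forelimb against 2.97, 4.64, 1.44 and 1.59 CPM in scale hindlimb. The grouse libraries held 21.9, 29.98, 13.4 and 13.95 CPM in forelimb and 6.65, 4.27, 1.29 and 2.30 CPM in hindlimb. The muff libraries held 30.3, 18.7, 17.3 and 16.7 CPM in forelimb and 6.50, 6.89, 4.72 and 2.51 CPM in hindlimb. The groups of a phenotype were again separate, at 4.03-fold (muff) to 7.93-fold (scale) more ALX1 in forelimb. ALX1 fell from forelimb to hindlimb by a log2 value of -3.00 ± 0.38 (SE, adjusted p = 0.00478) in scale, -2.45 ± 0.43 (SE, adjusted p = 0.023) in grouse and -2.03 ± 0.30 (SE, adjusted p = 0.00935) in muff. The grouse call was lost without forelimb replicate 1 (adjusted p = 0.0698), forelimb replicate 2 (0.066), hindlimb replicate 2 (0.0686) or hindlimb replicate 4 (0.0786). The muff call was lost without muff hindlimb replicate 3 (adjusted p = 0.0529).

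At HH29, scale forelimb held 14.7, 18.2, 15.6 and 14.3 CPM of ALX1 and scale hindlimb 2.07, 1.45, 1.34 and 1.88 CPM. Grouse forelimb held 13.2, 16.9, 10.2 and 9.76 CPM and grouse hindlimb 2.08, 1.34, 1.77 and 1.24 CPM. Muff forelimb held 10.9, 12.9, 15.2 and 14.3 CPM and muff hindlimb 2.56, 2.85, 3.75 and 3.73 CPM. Forelimb and hindlimb did not overlap in any phenotype, and the forelimb mean was 4.14-fold (muff), 7.79-fold (grouse) and 9.31-fold (scale) the hindlimb mean. The log2 fold change was -3.22 ± 0.18 (SE, adjusted p = 5.08e-06) in scale, -2.97 ± 0.26 (SE, adjusted p = 0.00041) in grouse and -2.04 ± 0.17 (SE, adjusted p = 0.000364) in muff. ALX1 was thus called lower in hindlimb in 8 of 9 comparisons, and in 9 of 9 with the replicate block, which called 1.31% to 12.0% of all genes.

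ALX4 showed the smallest limb differences of the 3 genes. At HH21 it was at 33.4, 32.1, 27.97 and 37.3 CPM in scale forelimb and 47.6, 47.3, 43.9 and 47.8 CPM in scale hindlimb. Grouse libraries held 36.6, 26.2, 30.5 and 29.9 CPM in forelimb and 21.7, 27.4, 40.98 and 41.8 CPM in hindlimb, and muff libraries 18.4, 32.7, 30.1 and 24.9 and 26.3, 36.9, 42.7 and 35.3 CPM. Only in scale were the groups separate, with every hindlimb library above every forelimb library. Its log2 fold change there was 0.52 ± 0.10 (SE, adjusted p = 0.0359). This call was near the threshold. It was lost without any 1 of 7 libraries (adjusted p from 0.0747 to 0.109) and was kept only without forelimb replicate 4 (0.0415). The log2 value stayed between 0.45 and 0.58 in these fits. The call was also lost when all 24 libraries of the stage shared 1 fit (0.337). In the authors' deposited table ALX4 did not pass in scale at HH21, at -0.42 for forelimb over hindlimb (adjusted p = 0.123). In the fits of grouse and muff here, hindlimb over forelimb was 0.09 ± 0.22 (SE, adjusted p = 0.968) and 0.40 ± 0.20 (SE, adjusted p = 0.613), and the muff difference passed with the replicate block (adjusted p = 0.0423).

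At HH25 the limbs could not be separated by ALX4 in the unpaired fits. Scale forelimb held 21.9, 26.6, 34.3 and 36.1 CPM and scale hindlimb 28.4, 29.4, 26.5 and 29.99 CPM. Grouse forelimb held 31.02, 28.4, 30.99 and 32.98 CPM and grouse hindlimb 24.1, 22.2, 26.8 and 29.7 CPM. Muff forelimb held 27.6, 25.8, 38.5 and 36.8 CPM and muff hindlimb 36.6, 29.6, 33.9 and 25.5 CPM. The groups of all 3 phenotypes overlapped. The log2 fold change was -0.06 ± 0.15 (SE) in scale and -0.04 ± 0.16 (SE) in muff. In grouse it was -0.27 ± 0.11 (SE, adjusted p = 0.577), and with the replicate block the adjusted p was 0.00953.

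By HH29 the hindlimb held less ALX4. Scale forelimb was at 24.9, 39.1, 33.4 and 36.4 CPM and scale hindlimb at 12.2, 15.7, 19.3 and 20.6 CPM. Grouse forelimb was at 34.3, 14.9, 37.2 and 34.2 CPM and grouse hindlimb at 16.5, 15.5, 21.5 and 16.9 CPM. Muff forelimb was at 31.6, 41.5, 42.3 and 45.9 CPM and muff hindlimb at 15.96, 26.5, 20.1 and 23.1 CPM. The limbs were separate in scale and muff, and in grouse they overlapped through forelimb replicate 2, the lowest library of both grouse groups. ALX4 fell in hindlimb relative to forelimb in scale, by a log2 value of -0.99 ± 0.19 (SE, adjusted p = 0.0264), and in muff, by -0.91 ± 0.16 (SE, adjusted p = 0.0349). In grouse the value was -0.78 ± 0.26 (SE, adjusted p = 0.306), and without forelimb replicate 2 it was -1.002 (adjusted p = 0.00232). The scale call was lost without forelimb replicate 2 (adjusted p = 0.074), 3 (0.0718) or 4 (0.0681) or hindlimb replicate 2 (0.0677). With any library left out, the scale log2 value stayed between -1.11 and -0.86. In the authors' deposited table the scale difference at HH29 passes, at 0.77 for forelimb over hindlimb (adjusted p = 5.62e-05). The muff call was lost without forelimb replicate 2 (0.12), 3 (0.142) or 4 (0.109) or hindlimb replicate 3 (0.136) or 4 (0.0781), and with a term for replicates 1 and 2 against 3 and 4 (0.0528). With the replicate block, adjusted p values of both comparisons stayed under 0.05, and ALX4 was called in 5 of 9 limb comparisons rather than 3 of 9. The 2 added calls came in muff at HH21 and grouse at HH25, where the block called 5.26% and 11.2% of all genes, against 0.971% and 1.42% without it.

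**Figure D2:**
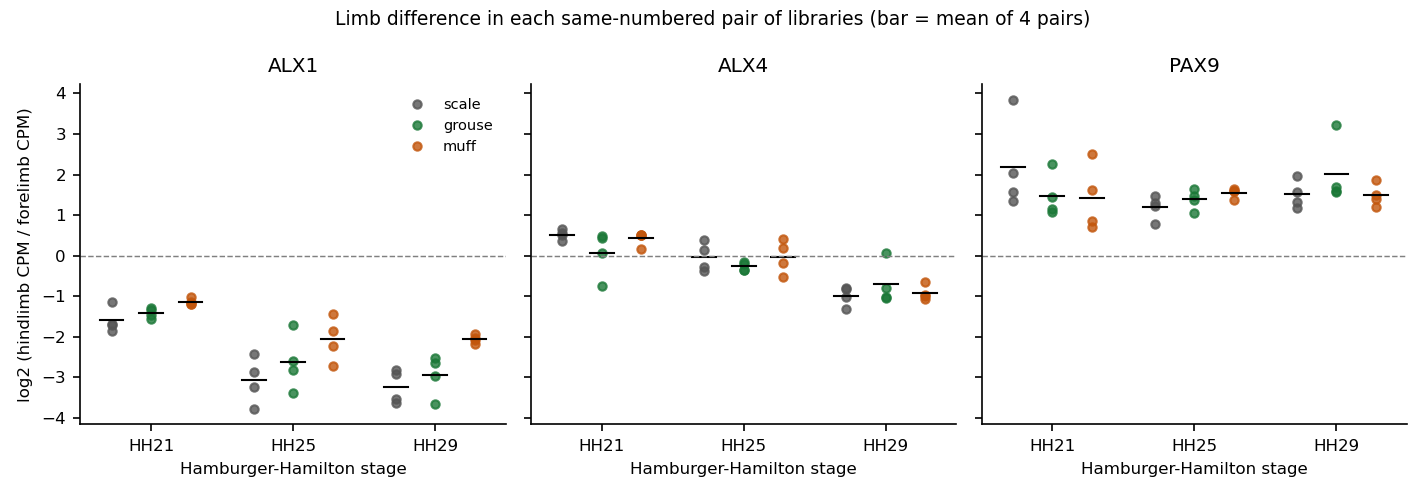
Difference between the limbs in each same-numbered pair of libraries, as log2 of hindlimb CPM over forelimb CPM, by stage and foot phenotype (points are pairs, bars the mean of 4 pairs, the dashed line equal levels). All 36 pairs lie below 0 for ALX1 and above 0 for PAX9, while ALX4 pairs move from mostly above 0 at HH21 to mostly below 0 at HH29.

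PAX9 was higher in hindlimb than in forelimb buds at all 3 stages. At HH21 the gene was near the limit of detection, with 17, 8, 24 and 2 counts in scale forelimb and 60, 19, 69 and 28 in scale hindlimb. In grouse the counts were 32, 7, 17 and 9 in forelimb and 80, 34, 37 and 21 in hindlimb, and in muff 2, 6, 4 and 4 and 6, 10, 18 and 7. The hindlimb mean in CPM was 2.68-fold (grouse) to 3.71-fold (scale) the forelimb mean, and the groups were separate only in muff. The log2 fold change was 1.89 ± 0.59 (SE, adjusted p = 0.231) in scale and 1.40 ± 0.53 (SE, adjusted p = 0.641) in grouse, and neither passed. Both passed with the replicate block, at adjusted p = 0.00154 in scale and 0.0307 in grouse. The authors' deposited table gives -0.56 for forelimb over hindlimb in scale, which passes (adjusted p = 0.0187). In muff PAX9 did not pass the filter on low counts. Tested without that filter, its log2 fold change was 1.41 (adjusted p = 0.368).

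At HH25 scale forelimb held 4.67, 3.93, 4.58 and 6.83 CPM of PAX9 and scale hindlimb 11.5, 10.9, 10.8 and 11.6 CPM. Grouse forelimb held 3.89, 5.49, 5.24 and 4.58 CPM and grouse hindlimb 10.8, 11.4, 13.6 and 14.4 CPM. Muff forelimb held 3.77, 3.54, 3.85 and 4.45 CPM and muff hindlimb 11.4, 10.7, 12.00 and 11.5 CPM. Every hindlimb library exceeded every forelimb library of its phenotype, by 2.24-fold (scale) to 2.91-fold (muff) on average. PAX9 in hindlimb over forelimb was 1.16 ± 0.18 (SE, adjusted p = 0.0136) in scale, 1.38 ± 0.16 (SE, adjusted p = 0.0024) in grouse and 1.53 ± 0.13 (SE, adjusted p = 0.000254) in muff on the log2 scale. The scale call was lost without forelimb replicate 1 (adjusted p = 0.0526) or 3 (0.0646), or hindlimb replicate 1 (0.0531) or 3 (0.0532). With any library left out, the scale log2 value stayed between 1.06 and 1.34. In the authors' deposited table the scale difference at HH25 passes, at -0.92 for forelimb over hindlimb (adjusted p = 3.64e-13).

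At HH29 scale forelimb was at 3.33, 2.49, 4.62 and 5.06 CPM and scale hindlimb at 8.36, 9.67, 13.7 and 11.5 CPM. Grouse forelimb was at 3.51, 1.85, 4.73 and 4.39 CPM and grouse hindlimb at 10.6, 17.2, 14.1 and 14.1 CPM. Muff forelimb was at 5.01, 5.45, 5.09 and 5.95 CPM and muff hindlimb at 11.5, 15.3, 18.5 and 15.7 CPM. The limbs were separate in all 3 phenotypes, and the hindlimb mean was 2.79-fold (scale), 3.87-fold (grouse) and 2.84-fold (muff) the forelimb mean. PAX9 rose in hindlimb relative to forelimb by a log2 value of 1.47 ± 0.24 (SE, adjusted p = 0.0118) in scale, 1.95 ± 0.27 (SE, adjusted p = 0.00962) in grouse and 1.51 ± 0.16 (SE, adjusted p = 0.00188) in muff. PAX9 was called higher in 6 of 8 comparisons that tested it, and in 8 of 8 with the replicate block and its larger share of calls among all genes.

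The summed level of a sclerotome and body-wall list differed between the limbs at the later stages, mostly through TBX18. The list was drawn up for tissue next to the bud. Summed over the 8 of 9 sclerotome and body-wall markers in the table, the level was 302 to 387 CPM in forelimb and 222 to 278 CPM in hindlimb libraries at HH25. At HH29 the sums were 259 to 364 and 158 to 240 CPM, and at HH21 they overlapped, at 127 to 244 and 139 to 223 CPM. TBX18 supplied most of this sum and was called lower in hindlimb in 5 of the 6 comparisons at HH25 and HH29. Its forelimb median was 310 CPM at HH25 and 309 CPM at HH29, against 196 and 184 CPM in hindlimb. The sum thus mainly follows TBX18 and does not measure how much tissue next to the bud a library held. NKX3-2, a sclerotome and cartilage gene of the same list, was called in the opposite direction at HH29, higher in hindlimb in grouse (1.77 ± 0.19, adjusted p = 0.00213) and muff (1.54 ± 0.18, adjusted p = 0.00355). PAX1, the sclerotome relative of PAX9, had a median of 21.5 CPM in forelimb and 8.94 CPM in hindlimb at HH25, the opposite order to PAX9, and was called in none of the 9 limb comparisons. GATA5, a marker of lateral mesoderm, had a median of 35.7 CPM in hindlimb and 5.95 CPM in forelimb at HH21, and GATA4 was at 0 in every library at HH29. The list thus did not move as a whole. By median at HH25 and HH29, TBX18, PAX1 and FOXC2 were lower in hindlimb and MEOX1, NKX3-2 and GATA5 higher, with GATA4 and FOXF1 barely detected. The sum of the limb mesenchyme markers was higher in forelimb at HH25, at 804 to 983 against 622 to 770 CPM, but it includes TBX5 and TBX4, the only members of that list called in a limb comparison. Without them the sums of the other 4 genes overlapped at HH25, at 527 to 638 CPM in forelimb and 476 to 593 CPM in hindlimb. The part of these differences in the limb results was not tested.

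The developmental course was measured with all 72 libraries in 1 fit, averaged over the 3 phenotypes. ALX1 fell with stage in both limbs, ALX4 fell in hindlimb and did not change detectably in forelimb, and PAX9 rose from HH21 to HH25 and then did not change detectably. From HH21 to HH25, ALX1 fell by a log2 value of -2.46 ± 0.18 (SE, adjusted p = 5.43e-18) in hindlimb and -1.33 ± 0.16 (SE, adjusted p = 1.83e-10) in forelimb. From HH25 to HH29 the changes were -0.82 ± 0.21 (SE, adjusted p = 0.000944) in hindlimb and -0.56 ± 0.16 (SE, adjusted p = 0.00323) in forelimb. The latter calls were lost without the libraries of replicate number 2 (hindlimb, -0.52, adjusted p = 0.0864) and of number 1 (forelimb, -0.38, adjusted p = 0.0809). By group, the HH21 mean of ALX1 was 2.26-fold to 2.71-fold the HH25 mean in forelimb and 4.96-fold to 6.02-fold in hindlimb.

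ALX4 in hindlimb fell by -0.40 ± 0.11 (SE, adjusted p = 0.00209) from HH21 to HH25 and by -0.62 ± 0.12 (SE, adjusted p = 8.51e-06) from HH25 to HH29 on the log2 scale. In forelimb the changes were 0.06 ± 0.11 (SE, adjusted p = 0.683) and 0.16 ± 0.11 (SE, adjusted p = 0.248), and forelimb libraries of different stages overlapped in all 3 phenotypes. PAX9 rose from HH21 to HH25 by 2.42 ± 0.20 (SE, adjusted p = 3.62e-16) in hindlimb and 2.63 ± 0.24 (SE, adjusted p = 1.32e-14) in forelimb. The HH25 mean of PAX9 was 2.93-fold (scale), 3.61-fold (grouse) and 14.3-fold (muff) the HH21 mean in hindlimb. Its changes from HH25 to HH29 were 0.18 ± 0.17 (SE, adjusted p = 0.409) in hindlimb and -0.10 ± 0.19 (SE, adjusted p = 0.7) in forelimb.

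Stage differences were common: 54.4% of tested genes were called between HH21 and HH25 in hindlimb and 53.6% in forelimb, and 49.7% and 46.5% between HH25 and HH29. The 8 calls among the 12 stage contrasts within a limb are read against that share. Fewer genes changed in their limb difference, 1.88% from HH21 to HH25, 0.848% from HH25 to HH29 and 5.35% from HH21 to HH29.

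The limb difference of ALX1 and of ALX4 changed with stage, and that of PAX9 did not change detectably. For ALX1 the log2 difference of hindlimb over forelimb moved by -1.12 ± 0.24 (SE, adjusted p = 0.00212) from HH21 to HH25 and by -0.26 ± 0.27 (SE, adjusted p = 0.968) from HH25 to HH29. Over the whole interval from HH21 to HH29 it moved by -1.38 ± 0.25 (SE, adjusted p = 7.36e-05). The first of these calls was lost without the libraries of replicate number 3 (-1.05, adjusted p = 0.0565). For ALX4 the difference moved by -0.78 ± 0.16 (SE, adjusted p = 0.00348) from HH25 to HH29 and by -1.24 ± 0.16 (SE, adjusted p = 6.92e-08) over the whole interval. From HH21 to HH25 it moved by -0.46 ± 0.16 (SE, adjusted p = 0.165), which passed with the limbs paired in a replicate block (adjusted p = 0.0203, with 6.65% of all genes called) and without the libraries of replicate number 1 (-0.62, adjusted p = 0.0282). For PAX9 the values over the 3 intervals lay between -0.21 and 0.28, with adjusted p of 0.953 or more.

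Hindlimb buds of the feather-footed groups were then compared with those of scale pigeons, the comparison closest to the foot phenotype. Mean ALX1 was higher in muff than in scale hindlimb at each stage and mean PAX9 lower in muff hindlimb at HH21, but no member passed the edgeR test in any of 27 comparisons. Among these, 9 had an unadjusted p under 0.05, and DESeq2 called 4. Over all genes, an unadjusted p under 0.05 was found for 1206 of 11950 (grouse against scale, HH21) to 2690 of 12623 (muff against grouse, HH29). DESeq2 called 0.655% to 6.5% of all genes in these comparisons. At HH21, HH25 and HH29, the share of all genes called by edgeR was 0%, 0.146% and 0.326% for grouse against scale, 0.317%, 0.34% and 0.3% for muff against scale, and 0.117%, 0.603% and 2.92% for muff against grouse. Groups were separate in 7 of the 27. Of all tested genes, 7.53%, 6.95% and 6.45% were separate for grouse against scale at the 3 stages, 10.7%, 8.89% and 10.5% for muff against scale, and 6.94%, 7.78% and 12.6% for muff against grouse.

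The muff hindlimb libraries of ALX1 lay above all scale hindlimb libraries at HH21 (24.3 to 28.1 against 12.4 to 21.4 CPM) and at HH29 (2.56 to 3.75 against 1.34 to 2.07 CPM). At HH25 they overlapped. Muff over scale was 0.68 ± 0.18 (SE, adjusted p = 0.122) at HH21, 0.95 ± 0.40 (SE, adjusted p = 0.272) at HH25 and 0.94 ± 0.24 (SE, adjusted p = 0.105) at HH29 on the log2 scale. Against grouse, muff hindlimb ALX1 was separate at HH29, with a log2 value of 1.01 ± 0.24 (SE, adjusted p = 0.0511). Grouse differed from scale by 0.31 ± 0.26 (SE), 0.45 ± 0.50 (SE) and -0.07 ± 0.26 (SE) at the 3 stages. DESeq2 put muff against scale at HH21 (adjusted p = 0.0163) and muff against grouse at HH29 (0.0229) past the threshold, and the fit of all 24 libraries of the stage did so for muff against scale (0.0424) and against grouse (0.0159) at HH29. With a term for replicates 1 and 2 against 3 and 4, muff against scale at HH25 also passed (0.0475). The authors' deposited table gives, for ALX1 in muff over scale hindlimb, log2 fold changes of 0.47, 0.41 and 0.53 at the 3 stages with adjusted p of 0.0335, 0.0284 and 0.028. TBX5, the forelimb selector gene, was called higher in muff than in scale hindlimb at all 3 stages, by 3.64 ± 0.49 (SE, adjusted p = 0.0278), 4.38 ± 0.17 (3.95e-07) and 3.64 ± 0.25 (0.000101) on the log2 scale, and its part in the ALX1 values was not tested.

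PAX9 in muff hindlimb at HH21 was at 0.475, 0.740, 1.41 and 0.564 CPM, below all scale libraries at 5.30, 1.57, 6.01 and 2.43 CPM and all grouse libraries at 6.72, 2.39, 3.06 and 1.75 CPM. The muff forelimb showed the lowest PAX9 of any group, at 0.292 ± 0.124 (SD, n = 4) CPM. In hindlimb the log2 fold change was -2.24 ± 0.49 (SE, adjusted p = 0.0817) over scale and -2.11 ± 0.49 (SE, adjusted p = 0.177) over grouse. Both passed in DESeq2 (adjusted p = 0.00182 and 0.0062), and the first also passed in the fit of all 24 libraries (0.0369). The authors' deposited table gives smaller values, -0.62 (adjusted p = 0.00257) and -0.55 (0.0127). How the deposited log2 values were computed was not checked, so their sizes are not compared with those of the fits here. At HH25 and HH29, PAX9 in muff hindlimb differed from scale by 0.01 ± 0.11 (SE) and 0.51 ± 0.19 (SE).

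ALX4 in scale hindlimb at HH21 stood above both feather-footed groups, without overlap. Its log2 fold change was -0.53 ± 0.20 (SE, adjusted p = 0.478) in grouse and -0.40 ± 0.14 (SE, adjusted p = 0.188) in muff, and neither passed. In the authors' deposited table the grouse value is -0.45 (adjusted p = 0.0296) and the muff value -0.31 (0.159). At HH25 and HH29 the hindlimb groups of all 3 phenotypes overlapped for ALX4.

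**Figure D3:**
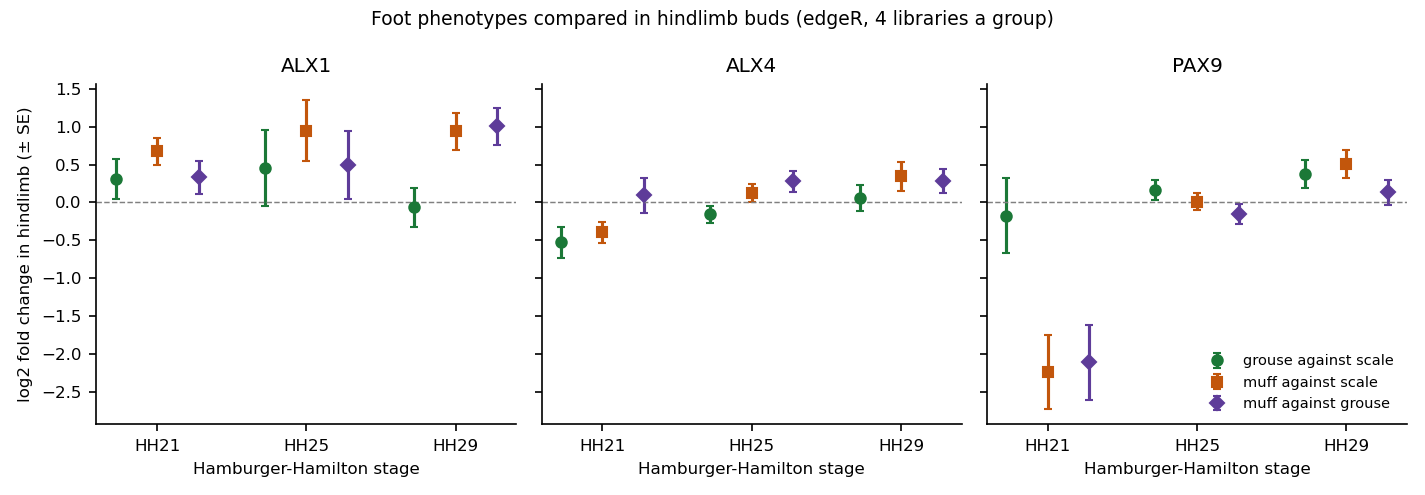
Log2 fold change ± SE of ALX1, ALX4 and PAX9 between foot phenotypes in hindlimb buds (4 libraries a group) by stage, for grouse against scale (circles), muff against scale (squares) and muff against grouse (diamonds). The dashed line marks no difference. Muff against scale is positive for ALX1 at the 3 stages, from 0.68 to 0.95, and -2.24 for PAX9 at HH21, and none of the 27 values passed the test.

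In forelimb buds, which form the wing, the same 9 comparisons gave no member call in edgeR among 25 values tested, 1 of which had an unadjusted p under 0.05. Over all genes, an unadjusted p under 0.05 was found for 875 of 12605 (grouse against scale, HH29) to 2682 of 12663 (muff against scale, HH29). The log2 fold changes of the members lay between -0.36 and 0.57. PAX9 was removed by the filter on low counts in muff against scale and muff against grouse at HH21. DESeq2, run without that filter, called the latter, at a log2 fold change of -2.14 (adjusted p = 0.0384), and the PAX9 groups of that comparison did not overlap, as for 8.31% of tested genes. At HH29 the muff libraries of PAX9 stood above the grouse libraries without overlap, as for 15.8% of tested genes in either direction. Of all genes tested at the 3 stages, edgeR called 0.108%, 0.187% and 0.0317% for grouse against scale, 0.0998%, 0.13% and 0.742% for muff against scale, and 0.872%, 0.651% and 1.06% for muff against grouse. DESeq2 called 0.623% to 6.67% of all genes in the 9 comparisons. PAX9 at HH21 was thus lower in muff than in grouse libraries of both limbs, at 0.292 against 1.30 CPM in forelimb and 0.796 against 3.48 CPM in hindlimb on average. The mean sclerotome and body-wall sum at HH21, most of it TBX18, was also lowest in muff. In forelimb it averaged 153 CPM in muff, 214 CPM in scale and 205 CPM in grouse, and in hindlimb 153, 210 and 182 CPM. Muff forelimb libraries, at 127 to 171 CPM, overlapped scale (169 to 244) and grouse (169 to 238). Muff hindlimb libraries, at 139 to 162 CPM, overlapped grouse (160 to 203) but not scale (202 to 223). The genes of this sum are not given singly by phenotype. The part of this marker difference in the PAX9 values was not tested.

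Whether the limb difference itself depended on the phenotype was tested as an interaction at each stage, for grouse and for muff against scale. No member passed in 18 tests with edgeR, 1 had an unadjusted p under 0.05, and DESeq2 called 0. Over all genes, an unadjusted p under 0.05 was found for 54 of 12605 (grouse, HH25) to 561 of 12315 (muff, HH21). Of all genes, 0% were called for grouse at each stage, and 0.00812%, 0.00794% and 0.0155% for muff at HH21, HH25 and HH29. The ALX1 values were positive in all 6, which is a smaller forelimb excess than in scale, and the largest was 1.17 ± 0.25 (SE, adjusted p = 0.673) for muff at HH29. With the limbs of a number paired in a replicate block it was 1.16 ± 0.21 (SE), adjusted p = 0.0203, in a fit that called 0.162% of all genes. The 4 muff pairs at HH29 held a hindlimb-to-forelimb log2 ratio between -2.18 and -1.94, and the 4 scale pairs between -3.65 and -2.82. These pairs belong to the largest of the 6 values, and the share of all genes with pairs so apart was not counted. For ALX4 and PAX9 the interaction values lay between -0.49 and 0.47.

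Ordered by mean level, the 18 groups of ALX1 began with the 3 forelimb groups at HH21, at 56.2 (muff), 53.2 (grouse) and 47.6 CPM (scale), which stood apart from all others. Hindlimb groups at HH21 and forelimb groups at HH25 and HH29 came next, between 25.5 and 12.5 CPM, each overlapping its neighbour. A second gap separated them from the 6 hindlimb groups at HH25 and HH29, at 5.15 to 1.61 CPM. Libraries of 15 of the 17 neighbouring pairs overlapped.

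The ALX4 groups formed a continuous series from 46.6 CPM in scale hindlimb at HH21 to 16.96 CPM in scale hindlimb at HH29, and all 17 neighbouring pairs overlapped. The same limb and phenotype thus stood at both ends of the series. For PAX9 the 6 hindlimb groups at HH25 and HH29 came first, at 15.3 to 10.8 CPM, and did not overlap with the next group, muff forelimb at HH29 at 5.37 CPM. Muff forelimb at HH21 came last, and the 2 limbs of muff at HH21 filled the last 2 places, without overlap between them.

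Other anterior, posterior and related genes were read in the same fits. Of 14 genes of an anterior list, 12 were tested, and 0 to 3 of them were called in a limb comparison. Below HH29 the only calls were LHX2, a LIM-homeodomain factor of the distal bud, which was lower in hindlimb in scale at HH21 (-0.47 ± 0.10, adjusted p = 0.0447) and in grouse at HH25 (-0.44 ± 0.09, adjusted p = 0.0419). At HH29, HAND1, a basic helix-loop-helix factor, was higher in hindlimb in scale (1.34 ± 0.25, adjusted p = 0.0227), grouse (1.24 ± 0.22, adjusted p = 0.0346) and muff (1.43 ± 0.21, adjusted p = 0.0166). The LIM-homeodomain gene LHX9 was higher in scale (0.37 ± 0.08, adjusted p = 0.0424) and muff (0.52 ± 0.08, adjusted p = 0.0224). In grouse, the ephrin receptor gene EPHA3 was higher (0.49 ± 0.09, adjusted p = 0.0415) and the Iroquois gene IRX3 lower (-0.81 ± 0.16, adjusted p = 0.047). The median over the list lay between -0.17 and 0.05 in the 9 limb comparisons, where the median over all genes was at most 0.01.

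Of 15 posterior and Hedgehog genes, 11 or 12 were tested and 2 or 3 were called in each limb comparison, all lower in hindlimb. HOXD10 and HOXD11, posterior Hox genes, were called in all 9, with HOXD10 between -3.37 and -1.86 and HOXD11 between -1.94 and -0.91 on the log2 scale. TBX3, a T-box repressor, was called at HH25 in scale and grouse and at HH29 in all 3 phenotypes, and TBX2 was called at HH21 in scale. SHH, the posterior signal, was not called in any limb comparison that tested it. ALX1 had the same direction as HOXD10 and HOXD11 in every limb comparison. These genes are named because they were called, and most of the list was not. In scale, the tested genes of the list that were not called lay on both sides of 0 at each stage.

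Among 9 tested paired-type homeobox relatives, PITX1 was higher in hindlimb in all 9 comparisons, by 4.08 to 6.95 on the log2 scale, and SHOX2 at HH21 (-0.63 ± 0.13, adjusted p = 0.0435) and SHOX at HH29 (-0.47 ± 0.07, adjusted p = 0.00822) were lower in scale. Of 8 other PAX genes, 3 were tested, and the muscle progenitor gene PAX3 alone was called, in muff at HH29 (-1.42 ± 0.21, adjusted p = 0.0164). In hindlimb phenotype comparisons, no posterior gene was called. PITX1 was lower in muff than in scale hindlimb at HH25 (-0.53 ± 0.09, adjusted p = 0.0474).

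**Figure D4:**
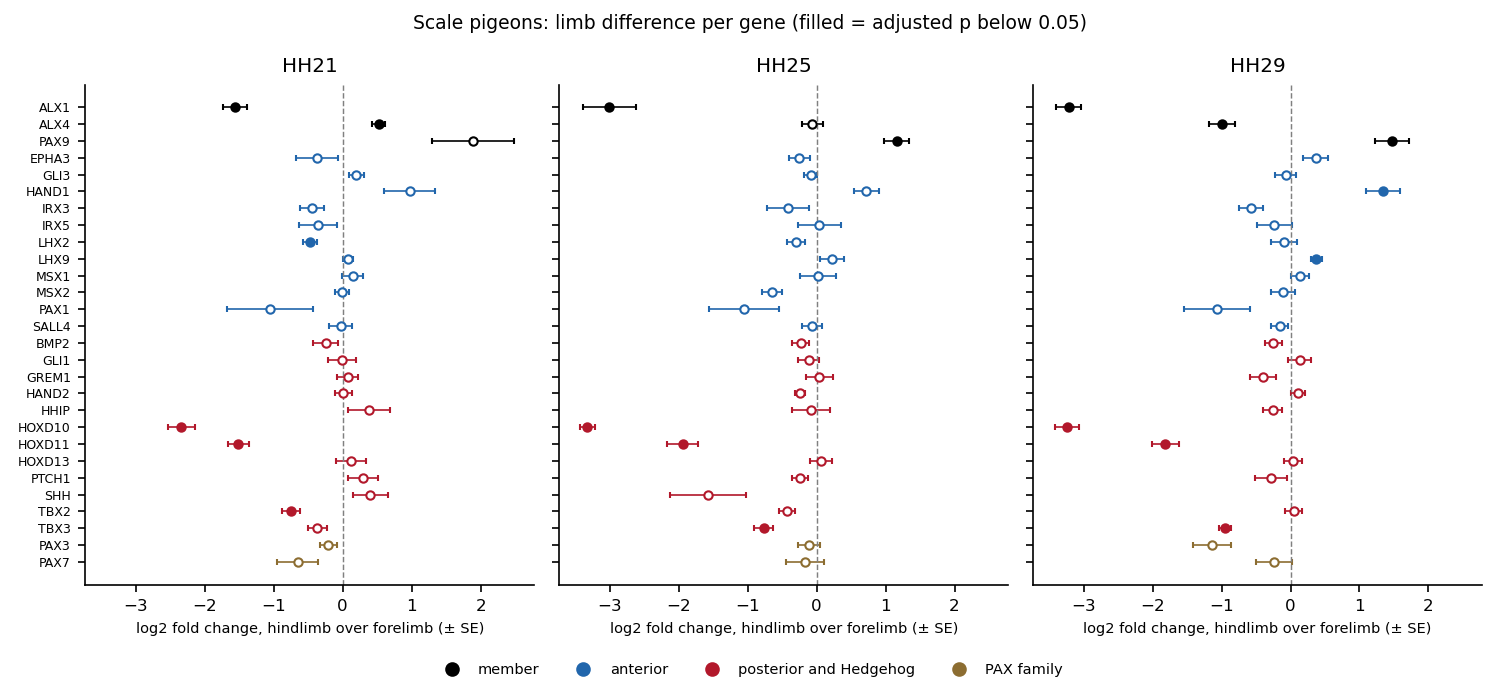
Log2 fold change ± SE of hindlimb over forelimb in scale pigeons at each stage for ALX1, ALX4 and PAX9 (black) and tested genes of the anterior, posterior and Hedgehog, and PAX lists. Filled points passed an adjusted p of 0.05. ALX1 lies at -1.56 to -3.22, on the forelimb side with HOXD10 and HOXD11, PAX9 on the hindlimb side, and most list genes near 0.

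Between HH21 and HH25, 11 of 12 anterior genes were called in hindlimb, 3 higher and 8 lower, where 54.4% of all genes were called. EPHA3 rose (2.24 ± 0.14, adjusted p = 7e-21), while SALL4, a spalt-type zinc finger gene, fell (-1.89 ± 0.10, adjusted p = 8.04e-24). The fall of ALX1 over this interval, -2.46, was larger than that of any anterior list gene, whose lowest value was that of SALL4. PAX1 rose in hindlimb (0.84 ± 0.31, adjusted p = 0.0178) and in forelimb (1.39 ± 0.30, adjusted p = 8.05e-05), as PAX9 did. From HH25 to HH29, 4 anterior genes fell in hindlimb and none rose, where 49.7% of all genes were called, so this is no excess of calls. The limb difference of PAX3 moved by -0.88 ± 0.15, adjusted p = 0.00014 from HH25 to HH29 on the log2 scale, where that of ALX4 moved by -0.78.

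Likeness of pattern was measured as Pearson's r between the 18 group means of log2(CPM + 1), over 12251 genes with a mean of at least 1 CPM. The 18 points share their scaling and fall into 3 stages, so these values are descriptions. For ALX1 the most similar gene was HOXD4, a Hox cluster gene (r = 0.95), followed by GALNT9 and TFAP2E, an AP-2 transcription factor gene (both 0.92), the cytokine gene IL10 (0.92) and SKAP2, a kinase adaptor gene (0.91). HOXD4 averaged 14.6, 9.28 and 6.93 CPM in forelimb over the 3 stages and 5.40, 2.59 and 1.87 CPM in hindlimb. For PAX9 they were NPNT, which encodes the matrix protein nephronectin, the pigmentation gene OCA2 and SOBP (each 0.96), then NEURL1 and TMEM61 (both 0.95). OCA2 averaged 1.28, 3.85 and 3.23 CPM in forelimb and 3.43, 11.3 and 8.70 CPM in hindlimb. ALX4 had no gene as close. Its nearest were GRHL3, a grainyhead-like factor gene (0.80), the features XM_005510529.2 (0.78) and XR_272080.2 (0.75), and PAX3 and SEMA5B, a semaphorin gene (both 0.74). Between the members, r was -0.93 for ALX1 and PAX9, 0.60 for ALX1 and ALX4, and -0.48 for ALX4 and PAX9.

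Chicken embryos, which are scale-footed, were part of the same study. For many chicken libraries the stage differs between title and other labels, and the names of the deposited count files give another stage or limb than the titles. These libraries therefore entered no fit here, and limb and stage of the chicken comparisons are given as the authors name them. In the authors' deposited table for chicken, forelimb over hindlimb, the log2 fold change of ALX1 was 0.94 at HH21, 1.86 at HH25 and 1.33 at HH29 (adjusted p = 0.00115, 8.38e-18 and 1.15e-08). That of PAX9 in the authors' deposited table was -2.38, -1.55 and -1.59 (adjusted p = 4.07e-23, 2.28e-15 and 6.32e-17). TBX5, the forelimb selector gene, was at 7.50, 6.48 and 5.81 in the authors' deposited table, the sign of the limb named first. Which libraries entered these chicken comparisons was not checked, so their directions rest on the authors' naming. ALX4 was looked up by symbol in the same chicken comparisons, and no entry of that name was found.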

How the data were processed

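RNA from whole limb buds was sequenced from oligo(dT)-selected stranded libraries, per the labels' protocols. The deposited counts are whole-number reads per feature, and the submitters' processing notes name FastQC, STAR, featureCounts and DESeq2 without versions. The authors' deposited comparison tables hold a mean normalized count (a signal per gene), a log2 fold change, a test score and p-values. These come from the authors and were not recomputed.

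Counts of 21379 features, 17422 of them with a symbol, were summed per symbol to 15850 entries. Each comparison was fitted to the libraries of its own groups with edgeR 4.0.16 (R 4.3.3) after filterByExpr and TMM scaling, using the quasi-likelihood test with Benjamini-Hochberg adjustment over all genes tested. A gene was called at an adjusted p below 0.05. The stage contrasts used 1 fit of all 72 libraries. SE was taken as the absolute log2 value over the root of its F statistic. The fits were tested on simulated data.

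Alternatives were DESeq2 1.42.0, its size factors, no filter on low counts, single features, a term for replicates 1 and 2 against 3 and 4, a replicate block, all 24 libraries of a stage, and leaving out each library. Same-numbered fore- and hindlimb libraries deviated together: 36 of 36 pairs had a correlation of deviations above 0.1 (0.227 to 0.772), so the numbers pair the limbs. Which forelimb library goes with which hindlimb library comes from the data and the shared number. Only the replicate block used this pairing, and the main fits compared group means. Replicates differed by more than counting noise in all 108 pairs within groups.

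Named genes were the 3 members, called genes of the lists, and the 5 genes most like each member in pattern. The members and lists were chosen with earlier results of these data known. Chicken counts were not used. Some list genes are counted in the totals but not reported here by name.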

Additional observations from a re-analysis of the deposited data

Results flagged for a closer look

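In 3 of 54 sets of 4 libraries, 1 library stood apart from the other 3 by Dixon's criterion, and chance marks about 1 in 20 sets. ALX1 in muff forelimb at HH25 had a highest library of 30.3 CPM. ALX4 in scale hindlimb at HH21 had a lowest library of 43.9 CPM, still above every grouse and muff hindlimb library of that stage. ALX4 in grouse forelimb at HH29 had a lowest library of 14.9 CPM, replicate 2, without which the limb difference passed the test.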

How the results depend on the processing

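Of 548 member values under alternatives other than leaving out libraries, 527 kept their direction and their side of the threshold, 19 were called only under the alternative and 2 lost their call. The limb comparisons gave 17 calls, 18 with DESeq2 and 22 with the replicate block. With each library left out in turn, 11 values were called in every fit and 19 in at least 1. Over the same 9 comparisons and all genes there were 1207 calls, 2636 with DESeq2 and 8698 with the replicate block. With 17 of 26 tested values already called, the members had little room to gain calls, so their growth cannot be compared with that of all genes. Hindlimb phenotype comparisons gave 0 calls, against 4 with DESeq2, 1 with the term for replicates 1 and 2 against 3 and 4, 1 with the replicate block and 3 with all 24 libraries of a stage. Calls over all genes there were 633, 3563, 1705, 1296 and 2009 in that order. Forelimb phenotype comparisons gave 0 calls and 1 with DESeq2, where all genes gave 481 and 3461. Interactions gave 0 calls and 1 with the replicate block, where all genes gave 4 and 23. Stage contrasts gave 12 calls. With each replicate number left out in turn, 9 were called in every fit and 13 in at least 1. The cause of these differences was not tested.

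Replicate numbers are only shared between phenotypes: 25 of 36 hindlimb and 23 of 36 forelimb pairs had a correlation above 0.1, and 29 and 28 of 72 libraries correlated best with their own number. With that block, ALX1 in muff over scale hindlimb at HH25 was 0.98 (adjusted p = 0.0385).

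Leaving out a library turned the direction of 13 results, none of them called. The ranges for ALX4 between limbs were -0.043 to 0.25 (grouse HH21), -0.18 to 0.046 (scale HH25) and -0.14 to 0.053 (muff HH25). In hindlimb they were -0.67 to 0.13 for PAX9 (grouse over scale, HH21), -0.049 to 0.23 for ALX4 (muff over grouse, HH21), -0.021 to 0.85 and -0.22 to 0.052 for ALX1 (grouse over scale, HH25 and HH29), -0.012 to 0.048 for PAX9 (muff over scale, HH25) and -0.073 to 0.16 for ALX4 (grouse over scale, HH29). Between stages they were -0.0094 to 0.13 for forelimb ALX4 (HH21 to HH25) and -0.18 to 0.00019 for forelimb PAX9 (HH25 to HH29). For the change of the limb difference they were -0.37 to 0.021 for ALX1 (HH25 to HH29) and -0.15 to 0.16 for PAX9 (HH21 to HH29). Low PAX9 counts at HH21 limit what those comparisons can show.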

Other observations

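Chosen after their values were seen, the ALX1 libraries at HH25 fell apart by replicate number. In 6 of 6 groups of that stage, both libraries numbered 1 and 2 lay above both libraries numbered 3 and 4, which was so in 0 of 6 groups at HH21 and 1 of 6 at HH29. How many of all genes split in this way was not counted. A term for replicates 1 and 2 against 3 and 4 raised the limb calls over all genes at HH25. The shares went from 0.943% to 3.03% in scale, 1.42% to 3.04% in grouse and 1.19% to 2.18% in muff. The term moved shares at other stages too, in muff from 0.971% to 2.14% at HH21 and from 0.661% to 0.583% at HH29. Such shares do not show which genes split as ALX1 did. Within replicates 1 and 2 the log2 difference of hindlimb over forelimb ALX1 was -2.83 in scale, -2.27 in grouse and -1.83 in muff, and within replicates 3 and 4 it was -3.32, -2.99 and -2.30. ALX4 and PAX9 split the other way at HH25, with libraries 1 and 2 below 3 and 4 in 3 of 6 groups each. At HH29 they did so in 3 of 6 groups (ALX4) and 4 of 6 groups (PAX9). The ALX4 limb difference at HH25 changed sign between these sets, from 0.26 to -0.32 in scale and from 0.30 to -0.35 in muff, and was -0.36 and -0.18 in grouse. The labels give no batch for these numbers.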
